A study of Homo sapiens with 30 samples.

Results

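SOX1, SOX2, SOX14 and SOX21 are 4 human genes for SOX proteins of the B group, and open chromatin around them was followed from pluripotent H1 cells to 6 neural populations. Every peak of 10 deposited ATAC-seq peak lists that overlapped one of the gene bodies, extended by 100 kb on each side, was taken. Peaks that overlapped by at least 1 bp across the lists were joined into 1 merged region, and a list with a peak inside a region counted as open there. The 4 windows held 221 of the 493444 merged regions on chromosomes 1 to 22, X and Y. The SOX1 window had 65 regions made from 329 peaks, the SOX2 window 62 from 317, the SOX14 window 47 from 248 and the SOX21 window 47 from 218. The windows did not overlap.

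SOX proteins bind DNA through an HMG box that reads short sequences such as ACAAAG. SOX1, SOX2 and SOX3, the B1 branch, act mostly as activators and hold neural progenitors back from becoming neurons, whereas SOX14 and SOX21, the B2 branch, act mostly as repressors and oppose them. SOX2 is also a core factor of pluripotent cells, where it partners POU5F1. SOX1 is a classical early marker of neural ectoderm, and SOX14 is known from subsets of postmitotic neurons in the diencephalon, midbrain and spinal cord.

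Omni-ATAC-seq, in which the transposase Tn5 cuts accessible DNA and inserts sequencing adapters, was applied to wild-type H1 cells, an established human embryonic stem cell line. The labels give 30 libraries in 10 groups of 3. Undifferentiated cells (hPSC) were taken on day 0. Definitive ectoderm (DE) was taken on day 1 after culture with the TGF-beta receptor inhibitor A8301, the MEK inhibitor Trametinib, the WNT secretion inhibitor C59 and the BMP receptor inhibitor LDN193189. All later groups went through this DE step. Anterior neural ectoderm (aNE) was taken on day 2 after A8301, LDN193189, C59 and Thiazovivin. Posterior neural ectoderm (pNE), also taken on day 2, had A8301, LDN193189, Thiazovivin, the retinoic acid receptor agonist TTNPB, FGF2 and the tankyrase inhibitor XAV939. From both, cultures were carried on to day 4 in media for telencephalon (aNE_T and pNE_T), midbrain (aNE_M and pNE_M) or hindbrain (aNE_H and pNE_H). Cells bound for the later time points were plated more densely in the posterior than in the anterior protocol, so origin and density cannot be told apart on day 4.

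Each group had 1 peak list with positions and no score. No value below therefore has a replicate error or a test, read depth is unknown, and each difference is between lists. The lists differ in length. Peaks covered from 75.5 Mb in aNE to 93.9 Mb in DE in 9 of the lists, and 129 Mb in pNE_H. When every list was reduced to its 167792 widest peaks, the length of the shortest, pNE_H still covered 104 Mb and the others 75.5 to 83.8 Mb. Of 5 pluripotency markers, POU5F1 lacked a peak within 1 kb of the gene in 5 lists, and NANOG, PRDM14, DPPA4 and ZFP42 had one in all 10. At POU5F1 the bases inside peaks numbered 508 in hPSC, 1096 in DE, 416 in aNE, 254 in aNE_T, 124 in pNE_M and 0 in pNE, aNE_M, aNE_H, pNE_T and pNE_H. Summed over the 5 markers, hPSC held 9875 bp and the other lists 6031 in pNE_T to 10086 in pNE_H. POU5F1, NANOG (1818 bp in hPSC, 1909 in aNE_T and 1955 in pNE_H), PRDM14 and DPPA4 were not highest in hPSC. Only ZFP42 was, with 1689 bp against 654 in pNE_T to 1487 in pNE_H. Summed over its markers, the pluripotency list thus did not set hPSC apart. All 5 neural ectoderm markers checked and all 5 posterior markers had a peak in every list. The same held for 5 mesoderm and endoderm markers and 4 neural crest and surface ectoderm markers. The presence of a peak at these markers, unlike at POU5F1, thus did not separate the populations.

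Promoter sequences are shown because a peak lay over them in every list at 3 of these genes. RefSeq promoters (GRCh38.p14, from 250 bases before to 50 after the transcription start) were matched for SOX1, SOX2 and SOX21. They lie at chr13:112066899-112067198 on the plus strand, chr3:181711675-181711974 on the plus strand and chr13:94712496-94712795 on the minus strand. Capitals mark matches to the words ACAATG and ACAAAG (both SOX), ATGCAAAT (POU octamer), TAATTA (homeodomain) and AGGTCA (retinoid receptor word), searched on both strands.
SOX1: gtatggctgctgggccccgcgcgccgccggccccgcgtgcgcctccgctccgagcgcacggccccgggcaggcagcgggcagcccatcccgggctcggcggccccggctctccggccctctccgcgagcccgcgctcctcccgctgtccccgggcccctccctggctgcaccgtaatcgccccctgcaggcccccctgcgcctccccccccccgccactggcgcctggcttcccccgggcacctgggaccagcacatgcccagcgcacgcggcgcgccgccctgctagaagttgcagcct
SOX2: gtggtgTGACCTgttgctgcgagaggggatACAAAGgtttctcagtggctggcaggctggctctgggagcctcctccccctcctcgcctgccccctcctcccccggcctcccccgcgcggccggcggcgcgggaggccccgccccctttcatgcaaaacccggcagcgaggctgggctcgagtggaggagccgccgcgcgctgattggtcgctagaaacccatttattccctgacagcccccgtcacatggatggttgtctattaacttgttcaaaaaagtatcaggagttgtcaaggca
SOX21: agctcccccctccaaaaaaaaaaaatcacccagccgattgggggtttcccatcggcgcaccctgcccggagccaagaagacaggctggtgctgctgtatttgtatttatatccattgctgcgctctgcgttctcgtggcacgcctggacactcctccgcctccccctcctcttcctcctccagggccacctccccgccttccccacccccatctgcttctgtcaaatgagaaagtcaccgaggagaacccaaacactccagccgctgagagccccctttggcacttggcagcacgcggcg
Only the SOX2 sequence had a match, to ACAAAG on the plus strand at bases 31 to 36 and to AGGTCA on the minus strand at bases 7 to 12, and these did not overlap. Among 15842 promoters of this length, 12.8% held ACAAAG, 11.7% AGGTCA, 7.95% ACAATG, 3.34% TAATTA and 1.7% ATGCAAAT. The SOX1 promoter held 37 CpG dinucleotides at 80.0% GC, and 15.0% of the promoters had as many CpG and 3.52% as much GC. The SOX2 promoter had 20 CpG at 63.3% GC and the SOX21 promoter 15 CpG at 60.0% GC, values that 56.0% and 65.5% of promoters matched or passed for CpG.

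These 3 promoters had a peak in all 10 lists, as did 70.1% of the 15842 promoters. Peaks covered all 300 bases of the SOX1 and SOX2 promoters in every list. At SOX21 they covered 197 bases in hPSC, 296 in DE, 294 in aNE_M and 300 in the other 7 lists. The hPSC list thus had the narrowest cover of the SOX21 promoter.

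SOX2, the factor shared by pluripotent and neural progenitor cells, had the most bases inside peaks at the region over its start, in each of the 10 lists. The region chr3:181710036-181712492, 2457 bp long and inside the long non-coding gene SOX2-OT, held 1555 bp inside peaks in hPSC, 1680 in DE, 1908 in aNE and 1895 in its posterior counterpart. On day 4 it had 2011 bp (aNE_T), 1988 (aNE_M), 1842 (aNE_H), 2302 in pNE_T, 2020 in pNE_M and 1796 in pNE_H. The 8 neural lists were all above hPSC and DE, and the values of aNE-derived and pNE-derived lists overlapped.

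SOX1 had 2 broad constant regions beside its gene body. The region over its start, chr13:112066230-112067756, held 1170 bp inside peaks in hPSC and between 1040 in pNE and 1476 in pNE_T elsewhere. The region 0.5 kb past its upper end, chr13:112072239-112073985, held 1395 bp in DE to 1704 in pNE_H, with 1657 in hPSC. Neither separated hPSC from the neural lists.

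At SOX21 the start is the upper end, and it shares the region chr13:94712312-94713921 with the antisense gene SOX21-AS1, so a peak there cannot be given to one gene or the other. This region held 1205 bp inside peaks in hPSC, 1337 in DE, 1484 in aNE, 1329 in pNE and 1347 to 1512 on day 4. The hPSC value was the lowest of the 10. A second region 1.8 kb below the gene, chr13:94706578-94707813, over LINC00391, held 257 bp in hPSC, 380 in DE, 719 in aNE and 612 in pNE. By day 4 it was widest in the telencephalon medium of both origins, with 1015 bp in aNE_T and 1139 in pNE_T. It held 692 bp in aNE_M and 659 in pNE_M, and 403 in aNE_H and 323 in pNE_H. Both origins thus ran in the same order from telencephalon to midbrain to hindbrain medium. This region was singled out after its values were seen, and how many other regions share the order was not counted.

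SOX14 differed from the other 3 genes at its end. The region over the lower end of the gene, chr3:137763974-137764428, was open in hPSC, DE, aNE, pNE and aNE_T and in no other list. Its peaks were 426 bp wide in hPSC, 306 in DE, 214 in aNE, 185 in pNE and 330 in aNE_T. The hPSC and DE peaks reached across the annotated end of the gene, whereas those of aNE, pNE and aNE_T stopped 71, 103 and 12 bp short of it. The remaining 5 lists of day 4, aNE_M, aNE_H and all 3 pNE-derived lists, had no peak. The strand of SOX14 is not given in the sources used here. Its upper end had no peak over it in any list, and the nearest region, 0.1 kb on, was open in DE, aNE and pNE_T.

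That pattern of 5 lists was read off the SOX14 region itself, so how often it occurs cannot show that SOX14 is unusual. The pattern was held by 0.19% of all merged regions and by the regions over 0.02% of the ends of protein-coding genes, 8 of 40066. A region open in all 10 lists covered 36.5% of those ends, and 69.8% of 20033 protein-coding genes had such a region over at least 1 end. SOX1, SOX2, SOX21 and all 15 other SOX genes examined were among them, and SOX14 was not. SOX14 was singled out here after its values were seen. With peaks required to cover 50% of the region, or with only the wider peaks of each list (at or above its median width), the SOX14 end was open in 3 lists, hPSC, DE and aNE_T. With all lists at one length, or with windows of 500 bp at peak midpoints, it was open in the same 5 lists as before.

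Constant regions stood on both sides of this SOX14 end, at -2.2 kb and at 1.1 and 3.6 kb past the upper end. The region at -2.2 kb, chr3:137760354-137762071, held 454 bp inside peaks in hPSC, 627 in DE, 339 in aNE, 893 in pNE and 533 to 1270 on day 4. A region at 2.0 kb past the upper end, chr3:137768383-137769235, had no peak in hPSC and DE. It held 437 bp in aNE, 646 in pNE, 144 in aNE_T, 755 in aNE_M, 600 in aNE_H, 301 in pNE_T, 163 in pNE_M and 641 in pNE_H. On one side of the gene a region was thus in hPSC, DE and 3 neural lists, and on the other side a region was in the 8 neural lists only. With all lists at one length the second no longer had a peak in all 6 day 4 lists.

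**Figure D1:**
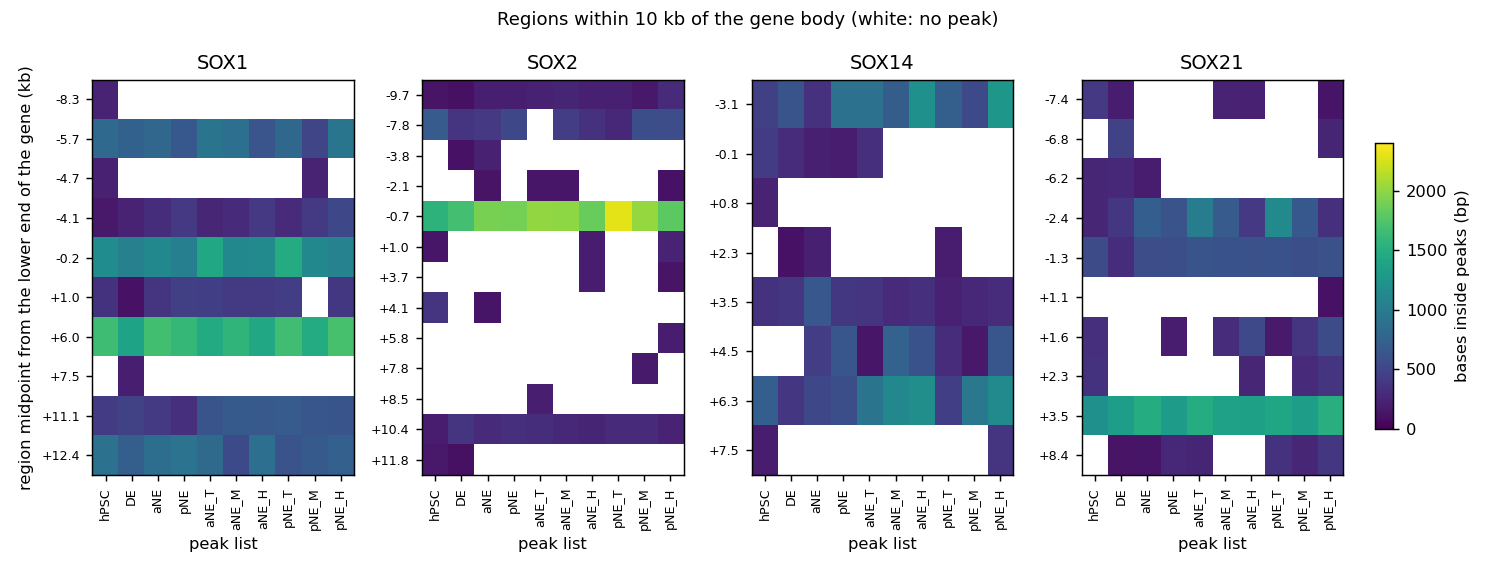
Bases inside peaks (colour, bp) for each merged region within 10 kb of the 4 gene bodies (rows, midpoint in kb from the lower end of the gene) in each of the 10 lists (columns); white means no peak. Constant rows of high values lie at the SOX1, SOX2 and SOX21 starts, while the second SOX14 row is filled in 5 lists only.

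Across the windows, 46 of the 221 regions were open in all 10 lists, 20.8% against 16.5% of all merged regions. They numbered 15 at SOX1 (23.1% of its regions, with a Wilson 95% interval of 14.5 to 34.6%), 13 at SOX2, 9 at SOX14 and 9 at SOX21. Such intervals cover counting error only. The median of the same share over the 15 other SOX genes was 25.0%, with a range of 10.1 to 51.4%. At the other end, 70 regions, 31.7%, were open in 1 list, against 33.5% of all regions. The shape of the distribution was therefore near that of the genome as a whole. Constant regions were wider: the median over lists and regions was 535 bp inside peaks for regions in all 10 lists, 227 for regions in 2 to 9 and 169 for regions in 1. Of the 70 regions in 1 list, 19 were from pNE_H, the longest list (27.1%, against 31.6% of all such regions), 13 from DE (18.6 against 16.3%) and 12 from hPSC (17.1 against 13.8%). The aNE and pNE lists had 1 each (1.43%, against 1.53 and 2.48%). These shares were close to those of all regions in 1 list.

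**Figure D2:**
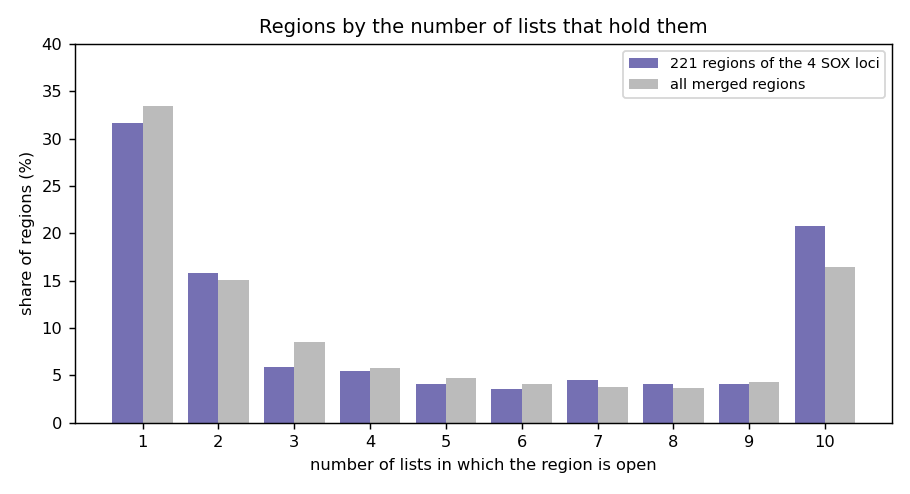
Share of merged regions (%, bars from 0) by the number of lists in which each is open, for the 221 regions of the 4 SOX loci and for all 493444. Both sets peak at 1 list (31.7% and 33.5%) and at 10 lists (20.8% and 16.5%).

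Most of the constant regions at SOX1 and SOX2 lay over the overlapping transcripts SOX1-OT and SOX2-OT. SOX1-OT covered 32 of the 65 SOX1 regions and 14 of the 15 constant ones. SOX2-OT covered 47 of the 62 SOX2 regions and 9 of the 13 constant ones. Outside any annotated gene were 24.2% of the SOX2 regions, 46.2% of the SOX1 regions, 46.8% of the SOX21 regions and 72.3% of the SOX14 regions. Within 10 kb of the gene bodies 15 of 41 regions were constant, from 10 to 50 kb 20 of 90, and from 50 to 100 kb 11 of 90. At SOX1 these counts were 6 of 10, 6 of 24 and 3 of 31, and at SOX2 3 of 13, 8 of 26 and 2 of 23. At SOX14 they were 3 of 8, 2 of 19 and 4 of 20, and at SOX21 3 of 10, 4 of 21 and 2 of 16. Counts by distance were not made for all genes, so these have no background beside them.

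**Figure D3:**
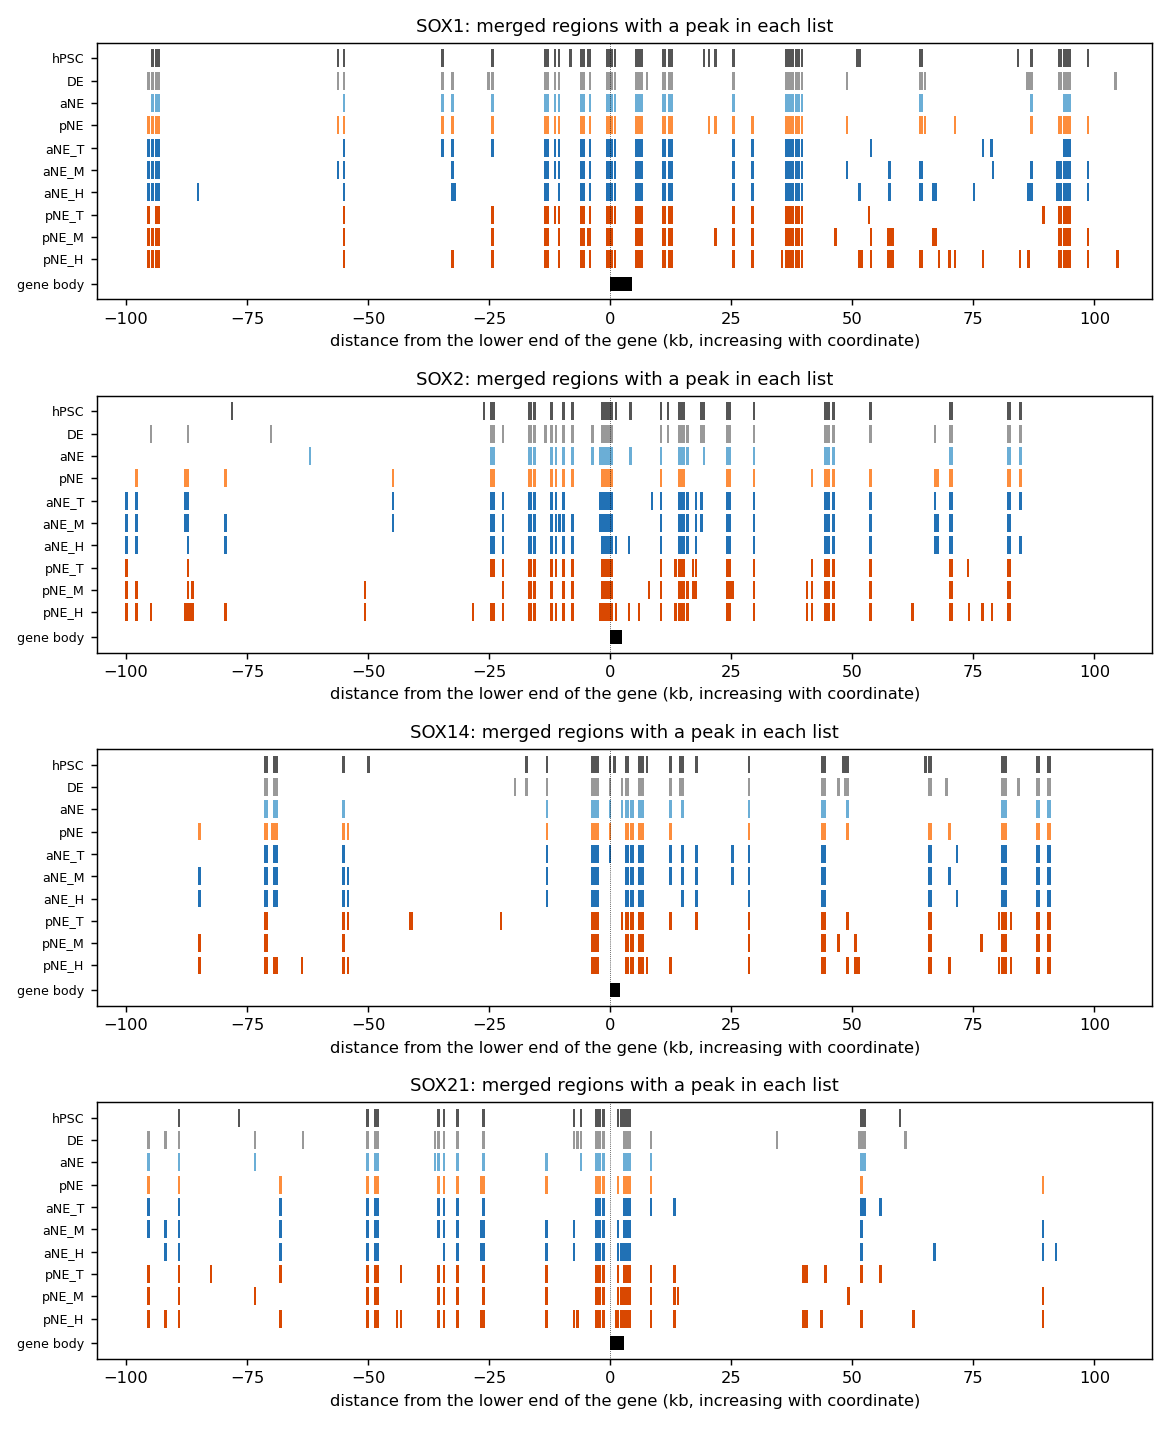
Merged regions that have a peak in each list (rows; grey for hPSC and DE, blue for aNE and its day 4 lists, orange for pNE and its day 4 lists) by distance from the lower end of each gene (kb), with the gene body in black and regions drawn at least 0.5 kb wide. Columns that run through all 10 rows are the constant regions, 15 at SOX1, 13 at SOX2, 9 at SOX14 and 9 at SOX21.

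The share of the 221 regions open in a list was lowest in aNE, the shortest list, and highest in pNE_H, the longest. It was 45.7% in hPSC, against 40.6% of all merged regions, and 49.8% in DE, against 46.9%. It was 37.1% in aNE, against 32.0%, and 44.3% in pNE, against 39.1%. For the aNE-derived lists it was 41.6, 45.7 and 45.2% in aNE_T, aNE_M and aNE_H, against 38.0, 41.7 and 38.9%. For the pNE-derived lists it was 42.1% in pNE_T, 42.5% in pNE_M and 59.7% in pNE_H, against 41.3, 41.0 and 60.9%. The loci were between 0.8 and 6.3 points above all regions in 9 lists and below them in pNE_H.

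By gene, SOX1 had 33 regions open in hPSC, 33 in DE, 23 in aNE and 33 in pNE, then 26, 30 and 32 in aNE_T, aNE_M and aNE_H and 23, 29 and 38 in pNE_T, pNE_M and pNE_H. Its hPSC share was 50.8% (38.9 to 62.5%). SOX2 had 24, 29, 23 and 26 in the first 4 lists, then 29, 31 and 29 in the aNE-derived and 25, 29 and 40 in the pNE-derived lists. SOX14 had its highest count in hPSC, 26, with 24 in DE, 18 in aNE, 21 in pNE, 19 to 21 in the aNE-derived lists and 22, 16 and 24 in pNE_T, pNE_M and pNE_H. SOX21 had 18, 24, 18 and 18 in the first 4 lists, 17, 19 and 20 in the aNE-derived and 23, 20 and 30 in the pNE-derived lists. SOX1, SOX2 and SOX21 were thus highest in pNE_H, and SOX14 in hPSC.

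**Figure D4:**
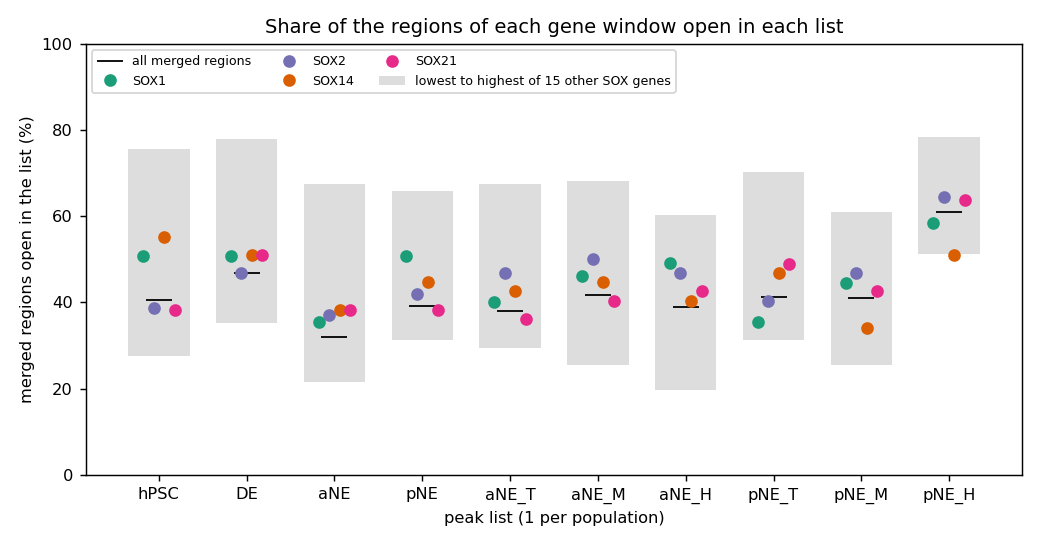
Share of the merged regions of each gene window that is open in each list (%, coloured points), with the share of all merged regions (black dash) and the lowest to highest value of 15 other SOX genes (grey bar). SOX14 is the highest of the 4 genes in hPSC (55.3%) and the lowest in pNE_H (51.1%).

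The number of bases inside peaks was higher than in hPSC and DE in all 8 neural lists at SOX2, and in the 6 day 4 lists at SOX21. How many other gene windows share these orders was not counted. The SOX2 window held 9442 bp inside peaks in hPSC, 9948 in DE, 10364 in aNE, 11902 in pNE, 12949 in aNE_T, 12817 in aNE_M, 12476 in aNE_H, 10594 in pNE_T, 11416 in pNE_M and 16706 in pNE_H. Of the higher lists, aNE has the fewest peaks, with a median width of 308 bp against 264 in hPSC. The part of list length and peak width in these differences was not tested. With all lists at one length hPSC held 8547 bp, DE 8070 and the neural lists 10038 to 12290. The SOX21 window held 6169 bp in hPSC, 6810 in DE, 6185 in aNE, 6744 in pNE, 7163, 7115 and 7017 in aNE_T, aNE_M and aNE_H, and 8171, 7651 and 9589 in pNE_T, pNE_M and pNE_H. On day 2 both lists were below DE. The 3 pNE-derived lists were above the 3 aNE-derived lists without overlap. At one length the day 4 lists held 6452 to 7451 bp, still above the 6185 of aNE and of pNE, 5771 of hPSC and 4962 of DE. The pNE-derived lists then held 7451, 6912 and 6781 bp against 6726, 6481 and 6452 for the aNE-derived ones.

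SOX1 and SOX14 had no such order. The SOX1 window held 14857 bp inside peaks in hPSC, 14664 in DE, 12955 in aNE, 16193 in pNE, 14474 to 14976 in the aNE-derived lists and 13410, 14031 and 18023 in pNE_T, pNE_M and pNE_H. The hPSC value was inside the range of the neural lists. The SOX14 window held 8653 bp in hPSC, 7670 in DE, 7842 in aNE, 9299 in pNE, 10432, 10190 and 9586 in aNE_T, aNE_M and aNE_H, and 7546, 6066 and 11226 in pNE_T, pNE_M and pNE_H. Its 3 aNE-derived lists were close to each other and its 3 pNE-derived lists were both below and above them.

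**Figure D5:**
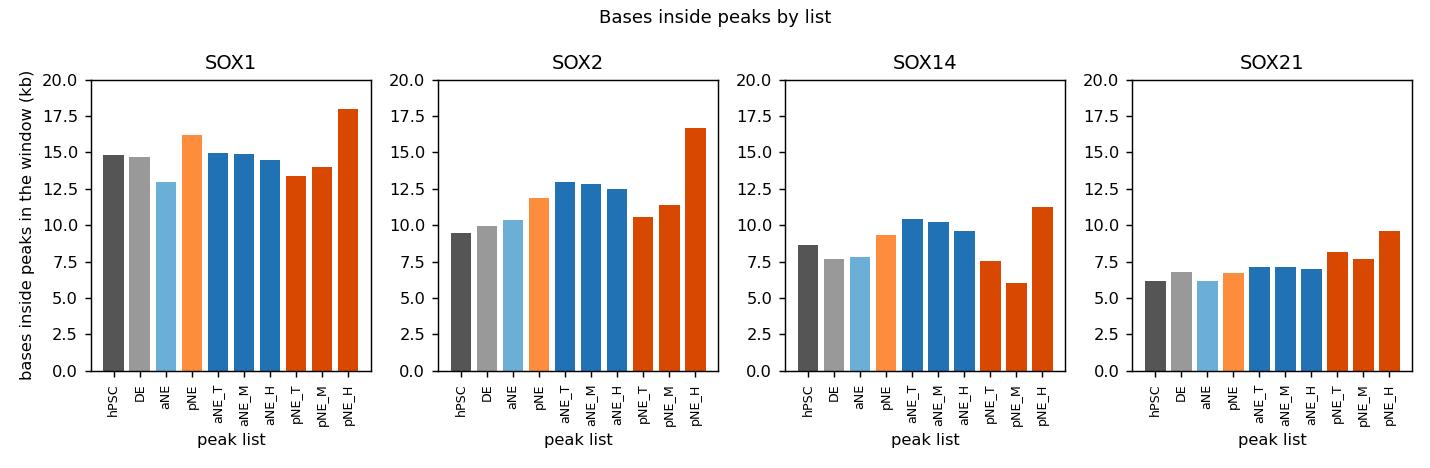
Bases inside peaks in each gene window (kb, bars from 0) for the 10 lists, coloured by origin (grey hPSC and DE, blue aNE and its day 4 lists, orange pNE and its day 4 lists). The SOX2 bar is lowest in hPSC and higher in each day 4 list, and pNE_H, whose list is the longest, is the tallest bar of each gene.

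More bases on day 4 than in hPSC were also seen inside constant regions. In 20 of the 46 regions open in all 10 lists, 43.5%, every day 4 list had more bases inside peaks than hPSC, against 22.0% of all regions open in all 10 lists. They were 5 at SOX1, 6 at SOX2, 3 at SOX14 and 6 at SOX21. The reverse, fewer bases in every day 4 list, was seen in 5, 10.9%, against 17.4%. With pNE_H set aside the first count was also 20 of 46, against 22.4%, and the second 5. Both counts were chosen after the values were seen. The widest constant region of SOX1, chr13:112103251-112105187 in SOX1-OT, held 1035 bp in hPSC, 1744 in DE and between 1436 and 1914 in the 8 neural lists. At SOX2, chr3:181793854-181794723, 79.4 kb past the gene, held 206 bp in hPSC, 225 in DE, 486 in aNE, 560 in pNE, 796, 722 and 778 in the aNE-derived lists and 314, 669 and 746 in the pNE-derived lists. The opposite course was seen at chr3:181756050-181757246, 41.6 kb past SOX2, with 1135 bp in hPSC, 1113 in DE, 1157 in aNE, 1124 in pNE, 1098 in aNE_T, 875 in aNE_M, 687 in aNE_H, 426 in pNE_T, 533 in pNE_M and 726 in pNE_H. There hPSC, DE and both day 2 lists were within 44 bp of each other and only aNE_T of the day 4 lists came near them.

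Regions that came or went between hPSC and day 4 were few, and their shares were near the background. Open in hPSC and in no day 4 list were 20 of the 221, 9.05% against 8.37% of all regions, with 5 at SOX1, 5 at SOX2, 7 at SOX14 and 3 at SOX21. Of the SOX14 ones, chr3:137812170-137812463, 45.8 kb past the gene, had a peak of 294 bp in hPSC alone. The widest at SOX1, chr13:112058682-112058918 at -8.2 kb, was also in hPSC alone, as was the widest at SOX21, chr13:94632667-94632962 in the neighbouring gene GPR180. At SOX2 the widest, chr3:181715885-181716249, 1.4 kb past the gene, had 365 bp in hPSC and 137 in aNE.

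Open in all 6 day 4 lists and not in hPSC were 6 regions, 2.71% against 2.64%, of which 2 were at SOX1, 3 at SOX2, 1 at SOX14 (the region 2.0 kb past the gene) and 0 at SOX21. At SOX2 the region chr3:181611801-181612135, at -99.8 kb in SOX2-OT, had no peak on days 0, 1 and 2 and had 292 bp (aNE_T), 311 (aNE_M), 229 (aNE_H), 180 in pNE_T, 299 in pNE_M and 239 in pNE_H. It crossed the edge of the window. It was the one region of the 221 open in every day 4 list and in no earlier one. That narrower pattern was not counted over all merged regions, so it has no background beside it. At SOX1 the region chr13:111971397-111972152, at -95.0 kb, was absent from hPSC and aNE and held 240 bp in DE, 379 in pNE, 235 to 450 in the aNE-derived lists and 128 to 489 in the pNE-derived lists. A further SOX1 region, chr13:112096260-112096804, was in pNE and all 6 day 4 lists.

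Step by step, the change from hPSC to DE added 9 of the 65 regions at SOX1, 9 of 62 at SOX2, 5 of 47 at SOX14 and 10 of 47 at SOX21. It took away 9, 4, 7 and 4. Over the 4 loci 33 of 221 were added and 24 of 221 taken away, against 15.1% and 8.83% of all regions. From DE to aNE, SOX1 gained 0 and lost 10, SOX2 gained 3 and lost 9, SOX14 gained 2 and lost 8 and SOX21 gained 1 and lost 7. Together 6 of 221 were gained and 34 of 221 lost, against 3.4% and 18.3% of all regions. From DE to pNE, SOX1 gained 5 and lost 5, SOX2 gained 6 and lost 9, SOX14 gained 6 and lost 9 and SOX21 gained 5 and lost 11. Together 22 of 221 were gained and 34 of 221 lost, against 9.9% and 17.7% of all regions. The aNE list is the shortest, and more regions lost than gained were seen on that step over all regions too. SOX1 was the one gene with as many regions gained as lost on the step to pNE.

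The day 2 comparison asks how anterior and posterior induction differ. Open in pNE and not in aNE were 28 of the 221 regions, 12.7% against 12.7%, and the reverse held for 12, 5.43% against 5.54%. SOX1 had 10 of the first kind and 0 of the second, SOX2 9 and 6, SOX14 5 and 2, and SOX21 4 and 4. The SOX1 split was the most uneven: each of its 23 aNE regions was also in pNE. Of its 10 regions in pNE and not aNE, 1 also appeared in all 6 day 4 lists and DE, and 1 in all 6 day 4 lists alone. The net difference at SOX2 and SOX14 changed sign with the window, since within 50 kb of the gene pNE had fewer open regions than aNE by 7.69 points (SOX2, -7.69) and 7.41 points (SOX14, -7.41).

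On day 4, origin separated few regions. Open in all 3 pNE-derived and no aNE-derived list was 1 region, 0.452% against 2.33%, and open in all 3 aNE-derived and no pNE-derived list were 3, 1.36% against 0.633%. The pNE-side region, chr3:181753381-181753791, 38.9 kb past SOX2, was absent from hPSC, DE and aNE and held 266 bp in pNE, 398 in pNE_T, 342 in pNE_M and 301 in pNE_H. It thus appeared with posterior induction on day 2 and was in all 3 media after it. On the aNE side, chr3:181778746-181779061, 64.3 kb past SOX2, held 140 bp in DE, 262 in pNE, 122 in aNE_T, 190 in aNE_M and 158 in aNE_H. This region was open in pNE on day 2 and in none of its descendants. At SOX14, chr3:137779008-137779595 in LINC01210 held 588 bp in hPSC, 475 in DE, 205 in aNE, 218 in aNE_T, 193 in aNE_M and 221 in aNE_H. It had no peak in pNE or any pNE-derived list. A second SOX14 region, chr3:137750963-137751289 at -13.0 kb, was in hPSC, DE, aNE, pNE and the aNE-derived lists. Both of these were present before neural induction and absent from the pNE-derived lists.

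The 4 genes were also placed beside genes with a similar course of open regions. For each of 18500 genes with 20 or more regions in an equal window (18497 for SOX21), the share open in each list was correlated with that of the SOX gene over the 10 lists, which share their lengths across genes. The genes most alike were XPR1 for SOX2 (r = 0.986, n = 10 lists), TMX4 for SOX21 (0.985), NPIPB3 for SOX14 (0.982) and ZNF516 for SOX1 (0.963). The next were HECTD2 (0.974) and HAVCR2 (0.972) for SOX2, CHRDL1 and SSPN (both 0.979) for SOX21, SDHAF1 (0.976) and CLN6 (0.969) for SOX14, and CYTH3 (0.958) and LOC124903408 (0.956) for SOX1. The mean over all genes already gave 0.757 for SOX1, 0.682 for SOX2, 0.754 for SOX14 and 0.779 for SOX21. Among the 4 genes r ran from 0.17 for SOX2 with SOX14 to 0.74 for SOX2 with SOX21. These are descriptions of 10 lists, and the highest values among so many genes were picked for being high.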

How the data were processed

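The authors deposited 10 peak lists, 1 per group, with chromosome, start and end of each peak in 3 columns (unit: position, with no score). FastQC, Bowtie2, MACS2, bedtools, featureCounts, edgeR and deepTools and the build hg38 are named, per the submitters' processing notes, without role or version. How the 3 replicates of a group were joined into 1 list is not given in the sources used here, and thresholds that differ between lists would move every count.

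Merging used an overlap of 1 bp on the autosomes, X and Y. Gene ends, biotypes and promoters came from RefSeq (GRCh38.p14), where all 4 genes matched by symbol and 3 of them by promoter. The background is all merged regions, or all promoters or protein-coding gene ends. Distances are from the gene body, negative toward lower coordinates. Named regions were those over or nearest each gene end and the widest of 5 patterns per gene, and others are marked as chosen after their values were seen, as are chr3:181756050-181757246, chr3:181793854-181794723, chr13:112096260-112096804 and chr3:137750963-137751289. The genes and lists were chosen with earlier results of these data known. The merging code was tested on simulated lists. Python 3.11.15, numpy 2.4.6, pandas 2.3.3 and matplotlib 3.10.9 were used, with statsmodels (version not recorded) for the Wilson intervals.

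Widths depend on the unknown peak threshold. The alternatives were a window of 50 kb each side, peaks that cover at least 50% of a region, peaks at or above the median width of their list, all lists at the size of the shortest, 500 bp windows at peak midpoints, and, chosen after seeing the data, the lists without pNE_H.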

Additional observations from a re-analysis of the deposited data

Results flagged for a closer look

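For all 4 genes the difference between hindbrain and telencephalon medium ran in opposite directions in the 2 origins. In bases inside peaks, aNE_H was below aNE_T, by -502 bp at SOX1, -473 at SOX2, -846 at SOX14 and -146 at SOX21, while pNE_H was above pNE_T by 4613, 6112, 3680 and 1418 bp. The gap between the 2 differences was 5115 bp at SOX1, 6585 at SOX2, 4526 at SOX14 and 1564 at SOX21. It was not tested, since each group has 1 list. The whole lists differed in the same opposite directions. Peaks covered 84.0 Mb in aNE_H against 87.2 Mb in aNE_T, and 129 Mb in pNE_H against 89.4 Mb in pNE_T. With all lists at one length the differences were -932, -832, -980 and -274 bp for the aNE-derived lists and 2277, 1593, 3096 and -670 bp for the pNE-derived lists, in the same order of genes, so that at SOX21 both were then negative. At that length the whole lists still covered 78.9 Mb in aNE_H against 83.1 in aNE_T, and 104 Mb in pNE_H against 83.0 in pNE_T. The part of list length in the remaining differences was not tested.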

How the results depend on the processing

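Of 120 values of 20 results under 6 alternatives, 100 moved by less than their counting interval, 16 by more, and 4 changed sign. No value moved past its interval with 500 bp windows or without pNE_H. Leaving out pNE_H could not change which regions are open in hPSC, aNE or pNE. For the hPSC share and pNE minus aNE it changed only the number of regions divided by. With a window of 50 kb, the share of SOX1 regions open in hPSC was 67.6% and in all 10 lists 35.3%, and pNE minus aNE was -7.69 points at SOX2 (4.84 with 100 kb) and -7.41 at SOX14 (6.38). With peaks covering 50% of a region, the share open in all 10 lists was 10.8% at SOX1, 6.45% at SOX2, 0.0% at SOX14 and 4.26% at SOX21, and the share open in hPSC was 21.0% at SOX2 and 34.0% at SOX14. Fewer peaks pass that rule by construction. With peaks at or above the median width, the share in all 10 lists was 4.0% at SOX14 and 8.7% at SOX21, that in hPSC and no day 4 list 3.45% at SOX2, that in all 6 day 4 lists and not hPSC 0.0% at SOX1, and pNE minus aNE 24.0 points at SOX14 and 13.0 at SOX21. With all lists at the size of the shortest, pNE minus aNE was -2.04 at SOX2, -2.94 at SOX14 and, within its interval, -11.4 at SOX21. The main value at SOX21 was 0.0, so no change there could be counted as one of sign. At SOX14 5.88% of regions were then in hPSC and no day 4 list and 0.0% in all 6 day 4 lists and not hPSC. For the other changes the cause was not tested. No paired analysis was possible because each group has 1 list with no values per replicate, and for the same reason no replicate could be set aside. Read depth is unknown, so an absent peak may lie below the detection limit of its list.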
